A study of Mus musculus with 6 samples.

Results

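The genes described here are 10 components of the Nodal signalling pathway in mouse cells differentiated from embryonic stem cells. They are the ligand gene Nodal, the co-receptor gene Tdgf1, the type II receptor gene Acvr2b, the secreted inhibitor genes Lefty1, Lefty2 and Cer1, the signal transducer genes Smad2 and Smad3, their DNA-binding partner Foxh1, and the intracellular inhibitor Smad7. They were chosen by name, as every non-control probe whose RefSeq transcript belongs to one of these genes, which gave 11 of 41174 probes and 10 of 18753 named genes. Smad3 had 2 probes and each other gene had 1. Cells of mouse strain 129/Ola were plated on gelatin and differentiated without serum in N2B27, which tends to give neural cells. They are described as day 3 cells, given either the solvent DMSO (3 samples) or the histone deacetylase inhibitor trichostatin A (TSA, 3 samples) for 24 h. Total RNA of each sample was labelled with Cy3 and hybridised to 1 Agilent array, and each of 3 slides held the DMSO and the TSA sample of the same replicate number. The dose of TSA and the name of the stem cell line are not given in the sources used here. DMSO samples always lay at position 3 of a slide and TSA samples at position 4, so treatment cannot be told apart from position.

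Nodal is a secreted protein of the transforming growth factor beta family. It binds activin receptors together with the membrane-anchored co-receptor Cripto, the product of Tdgf1, and the receptors phosphorylate Smad2 and Smad3, which enter the nucleus with Smad4 and act on target genes with Foxh1. Nodal, Lefty1, Lefty2 and Cer1 are themselves targets of the pathway, so that the ligand amplifies its own expression while the Lefty proteins and Cerberus, the product of Cer1, restrain it outside the cell. In the early embryo this loop sets where the primitive streak, mesoderm and endoderm form, and blocking it favours neural fates.

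The sequences before the starts of Nodal, Tdgf1 and Cer1 are shown because these genes had the highest and the lowest treatment differences of the 10 and Foxh1 and Smad proteins are known to act on this pathway's own genes. Of the 10 genes, 5 were in the RefSeq promoter table (GRCm38.p6), and each line gives the 250 bases before the annotated start, 5′ to 3′ on the gene's own strand. Capitals mark matches, on either strand, to the SMAD element CAGAC or to the FOXH1 core in its relaxed form AATNNACA.
Nodal, chr10:61417722-61417971, plus strand: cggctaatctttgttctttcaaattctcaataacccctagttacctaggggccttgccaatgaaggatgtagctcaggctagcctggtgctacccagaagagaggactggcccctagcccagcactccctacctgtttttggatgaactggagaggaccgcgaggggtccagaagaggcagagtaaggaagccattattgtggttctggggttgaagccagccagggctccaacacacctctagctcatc
Tdgf1, chr9:110946159-110946408, minus strand: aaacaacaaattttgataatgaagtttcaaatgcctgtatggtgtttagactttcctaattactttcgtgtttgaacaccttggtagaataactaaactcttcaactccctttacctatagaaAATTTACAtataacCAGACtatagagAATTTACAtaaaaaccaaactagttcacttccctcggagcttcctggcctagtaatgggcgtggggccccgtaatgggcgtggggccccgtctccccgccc
Cer1, chr4:82885152-82885401, minus strand: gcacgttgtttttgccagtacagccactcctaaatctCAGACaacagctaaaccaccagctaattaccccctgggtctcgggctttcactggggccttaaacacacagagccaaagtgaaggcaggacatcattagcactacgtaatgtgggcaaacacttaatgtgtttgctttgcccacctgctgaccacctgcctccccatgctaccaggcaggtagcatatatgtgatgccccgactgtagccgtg
The Tdgf1 sequence held 1 SMAD element, and it lay between 2 relaxed FOXH1 cores that were both AATTTACA. These cores began 127 and 101 bases before the start, and the SMAD element began 113 bases before it. The Cer1 sequence held 1 SMAD element and the Nodal sequence held no match. Of the other genes in the table, Acvr2b held 1 SMAD element, on the opposite strand 233 bases before the start, and Smad3 held no match. Among 32851 promoters of the same length, 42.2% held the SMAD element and 10.9% the relaxed FOXH1 core. The strict FOXH1 core AATCCACA, held by 0.718% of promoters, the palindromic SMAD element GTCTAGAC, held by 0.167%, and the TATA box TATAAA, held by 12.4%, were in none of the 5 sequences. Every strict FOXH1 core is also a relaxed one, while the palindrome holds neither CAGAC nor its reverse complement GTCTG. Nodal, Tdgf1 and Cer1 had 3, 7 and 5 CpG dinucleotides in these bases, against a median of 6 over all promoters. Acvr2b and Smad3 had 24 and 22, more than 88.0% and 85.2% of promoters. A match is a description of letters, and a missing match says nothing of binding by the factor.

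Across the series, 61.1% to 72.3% of an array's 43379 spots passed the scanner software's background test and 0 were saturated, and the 75th percentile of the processed signal ran from 311 to 926 intensity units. TSA replicate 2 was the dimmest array. Its correlations with the other TSA arrays over the tested probes were 0.931 and 0.939, while pairs of the remaining arrays of a treatment gave 0.984 to 0.990, and its added control RNAs were 1.41 higher (log2, relative to the 75th percentile) than on DMSO array 2, while slides 1 and 3 gave 0.039 and 0.16. The labelled cell type, differentiated embryonic stem cells, was checked against marker lists. All 8 stem cell markers (including Pou5f1 and Zfp42), all 6 primed epiblast markers (including Fgf5 and Otx2), 5 of 6 neural progenitor markers (including Sox1 and Pax6) and all 6 primitive streak markers (including T and Mixl1) were above background on all 6 arrays. So were 7 of 11 extraembryonic endoderm markers, 4 of 6 trophoblast markers and 23531 of all 41174 probes. Detection alone therefore does not single out a cell type. In these whole-culture RNA samples, fewer cells of a type and less RNA per cell cannot be told apart.

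All 10 genes were above background on every array and all were tested. None of the 10 rose or fell in TSA by limma at an adjusted p under 0.05, where 1.41% of 14533 tested genes passed. That background depends on which arrays are kept. Of the 6 fits without a single array, 5 called 0 probes, as did the fit without both arrays of slide 2. These had 2022 to 4997 probes at an unadjusted p under 0.05 (limma). The fit without TSA replicate 2 called 576 probes higher and 54 lower, against 259 and 10 with all 6 arrays. At an unadjusted p under 0.05 there were 2 of the 10, Nodal and Tdgf1, both higher in TSA, against 12.1% of all tested genes in that direction. The mean was higher in TSA for 4 of the 10 and lower for 6, where 58.1% of all genes were higher. The median difference was -0.02 on the log2 scale, against 0.08 over all tested genes. Levels below are log2 of the processed signal minus the 75th percentile of the array, differences are TSA minus DMSO on that scale with the standard error (SE) from limma, and each treatment has 3 arrays. Levels of different genes come from different probes and are not set against each other. The labels call the 3 samples of a treatment independent experiments. The main fit has treatment as its only term, so its p-values measure the spread among these samples, differences between slides included. With the slide as a block 0 of the 10 passed (limma, lowest adjusted p 0.0600, Nodal), where 3.34% of tested genes did.

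**Figure D1:**
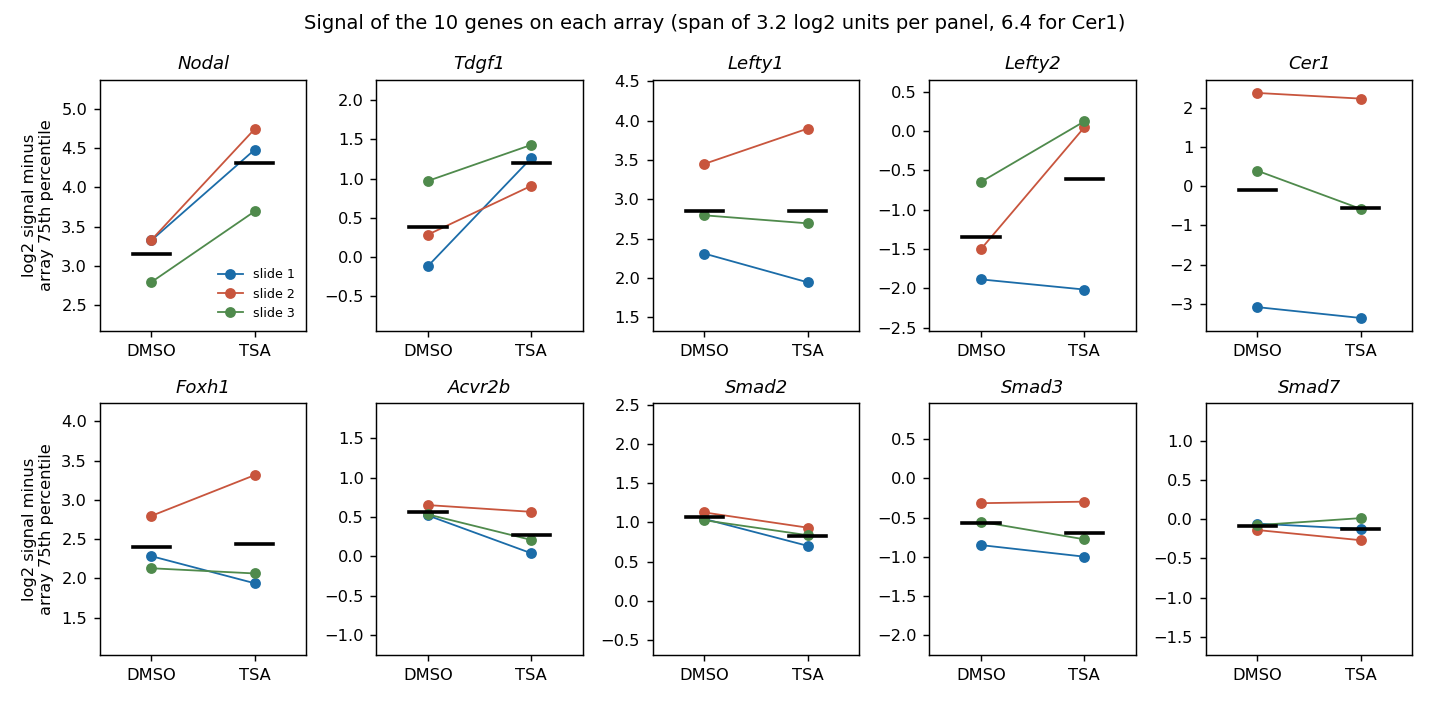
Level of each of the 10 genes (y axis, log2 processed signal minus the array's 75th percentile) on DMSO and TSA arrays (x axis), with a line joining the 2 arrays of a slide and a black bar at each treatment's mean of 3 arrays. Nodal and Smad2 are the genes whose treatments do not overlap, Nodal with TSA higher and Smad2 with TSA lower, while the lines of Lefty1 and Cer1 lie farther apart between slides than their ends do between treatments.

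Nodal, the ligand, had levels of 3.33, 3.33 and 2.79 on DMSO arrays 1 to 3, and 4.48, 4.74 and 3.70 on TSA arrays 1 to 3. All 3 TSA arrays lay above all 3 DMSO arrays, as they did for 16.4% of tested genes. In processed signal the slides went from 6342 to 14965, from 6585 to 8324 and from 6428 to 11472 intensity units. The scaled difference was 1.15 on slide 1, 1.41 on slide 2 and 0.90 on slide 3. On the same scale the added control RNAs differed by 0.039, 1.41 and 0.16, so on slide 2 Nodal differed by as much as the controls did. Scaled to the controls instead, an alternative chosen after seeing the data, Nodal differed by 1.12, -0.00090 and 0.74 on slides 1 to 3. The mean was then 0.62 ± 0.54 (SE, n = 3; limma, adjusted p = 0.749), where the median of all tested genes was -0.45. On the 75th percentile scale the mean was 1.16 ± 0.33 (SE, n = 3 per treatment), or 2.23-fold, with a 95% interval of 1.29-fold to 3.86-fold (limma, unadjusted p = 0.0112, adjusted p = 0.210). A lower difference was found for 93.5% of tested genes, and the smallest difference that passed the test in any gene was 1.20 in size. The fit with a slide term gave an SE of 0.20 and an adjusted p of 0.0600, still above the threshold. Without both arrays of slide 2 the difference was 1.03 and without TSA array 2 alone 0.94.

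Tdgf1, the co-receptor that lets the receptors respond to Nodal, had levels of -0.11, 0.29 and 0.97 on DMSO arrays 1 to 3, and 1.26, 0.91 and 1.43 on TSA arrays 1 to 3. TSA was higher on every slide, as for 32.6% of tested genes, but the treatments overlapped, since TSA array 2 lay below DMSO array 3. The slides differed by 1.37, 0.62 and 0.46, and the mean difference was 0.82 ± 0.33 (SE, n = 3), or 1.76-fold with a 95% interval of 1.03-fold to 3.02-fold (limma, adjusted p = 0.391). The DMSO arrays spanned 1.08 and the TSA arrays 0.52. With the slide as a block the SE was 0.247 (limma, adjusted p = 0.1735). Scaled to the added control RNAs, the slides differed by 1.34, -0.79 and 0.29 and the mean by 0.28 ± 0.76 (limma, adjusted p = 0.848). On that scale TSA was lower on slide 2, but the median of all tested genes there was -1.11, lower than the value of Tdgf1. The median of all tested genes for the mean was -0.45.

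Acvr2b encodes a type II activin receptor, the kind that binds ligand and activates the type I receptor. Its levels were 0.52, 0.65 and 0.53 on DMSO arrays 1 to 3, and 0.04, 0.57 and 0.21 on TSA arrays 1 to 3. Within each slide TSA was lower, as for 21.4% of tested genes, and TSA arrays 1 and 3 lay below all DMSO arrays while TSA array 2 lay among them. The difference was -0.30 ± 0.22 (SE, n = 3; limma, adjusted p = 0.642), with a 95% interval from -0.82 to 0.22.

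The secreted inhibitors did not share a direction. Lefty1, which binds the ligand and its co-receptor, had levels of 2.31, 3.45 and 2.80 on DMSO arrays 1 to 3, and 1.94, 3.90 and 2.69 on TSA arrays 1 to 3. The treatments overlapped throughout, with the array of slide 2 highest and that of slide 1 lowest in each. The difference was -0.0067 ± 0.54 (SE, n = 3; limma, adjusted p = 0.997). Its 95% interval ran from 0.41-fold to 2.44-fold, and with the slide as a block from -0.59 to 0.58 on the log2 scale. On slides 1, 2 and 3 TSA differed by -0.37, 0.45 and -0.10, and the sign of the mean turned to positive without TSA array 1 (0.44), DMSO array 2 (0.29) or TSA array 3 (0.07).

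Lefty2, the related gene that is expressed in streak and mesoderm of the embryo, had levels of -1.89, -1.50 and -0.65 on DMSO arrays 1 to 3, and -2.02, 0.05 and 0.12 on TSA arrays 1 to 3. TSA arrays 2 and 3 lay above all DMSO arrays, and TSA array 1 lay below them all. The slides differed by -0.13, 1.55 and 0.77, with a mean of 0.73 ± 0.64 (SE, n = 3; limma, adjusted p = 0.681) and a 95% interval of 0.58-fold to 4.78-fold. With the slide as a block the SE was 0.35 (limma, adjusted p = 0.321). Scaled to the added control RNAs, the slides differed by -0.17, 0.14 and 0.61 and the mean by 0.19 ± 0.78 (limma, adjusted p = 0.897). The 2 Lefty genes are close relatives, and how far the probe of each also binds the transcript of the other was not tested.

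Cer1, whose product binds Nodal and also antagonises BMP and Wnt ligands, had levels of -3.08, 2.37 and 0.39 on DMSO arrays 1 to 3, and -3.36, 2.23 and -0.58 on TSA arrays 1 to 3. The slides stood in the same order in both treatments, slide 2 highest and slide 1 lowest. In processed signal Cer1 ran from 74.8 to 3384 units on DMSO arrays, and after scaling its range was 43.7-fold in DMSO and 47.9-fold in TSA. A smaller range in DMSO was found for 99.97% of tested genes. TSA was lower on every slide, by 0.28, 0.14 and 0.97 on slides 1, 2 and 3. The mean difference was -0.46 ± 1.77 (SE, n = 3; limma, adjusted p = 0.924), while a slide term brought the SE to 0.24 (adjusted p = 0.338). The sign of the mean turned without TSA array 1 (0.93) or DMSO array 2 (0.78), which leaves the slides unequally filled.

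**Figure D2:**
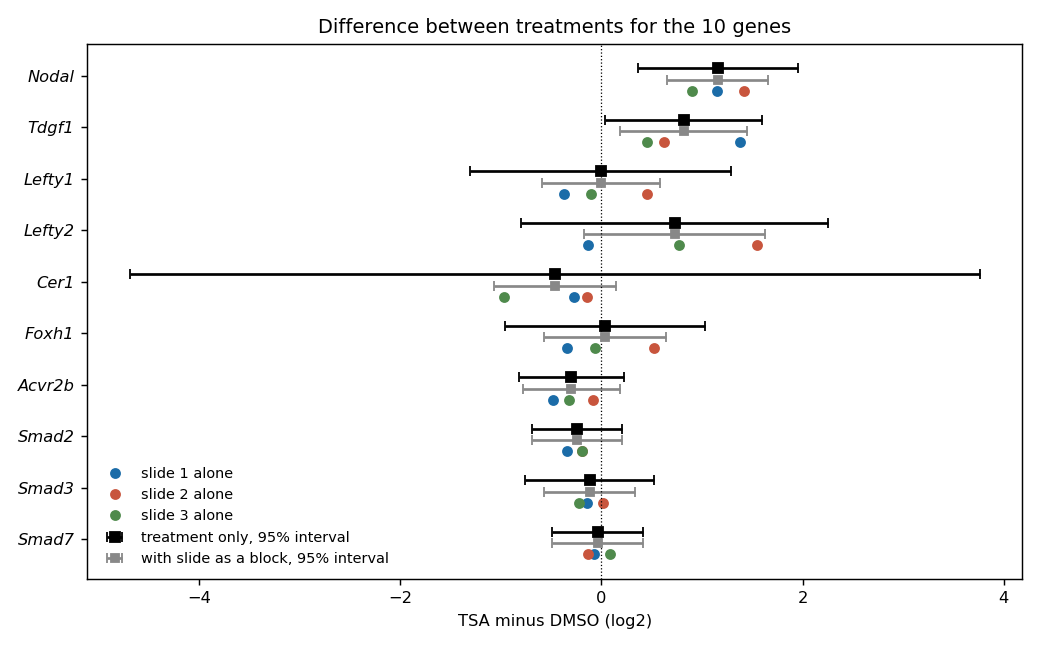
TSA minus DMSO (x axis, log2) for each of the 10 genes (y axis), with black squares and bars for the mean and 95% interval of the fit on treatment, grey ones for the fit with the slide as a block, and coloured points for each slide. The intervals of Nodal and Tdgf1 lie above 0 before adjustment for the number of probes, and the interval of Cer1 narrows from -4.69 to 3.76 without the block to -1.07 to 0.14 with it.

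Smad2 and Smad3 carry the signal from the receptors to the nucleus. Smad2 had levels of 1.04, 1.13 and 1.03 on DMSO arrays 1 to 3, and 0.70, 0.93 and 0.84 on TSA arrays 1 to 3. All TSA arrays lay below all DMSO arrays, as for 8.28% of tested genes, and the arrays of a treatment differed by at most 0.23. The difference was -0.24 ± 0.19 (SE, n = 3; limma, adjusted p = 0.654), or 1.18-fold higher in DMSO, and its 95% interval ran from 0.62-fold to 1.15-fold, TSA over DMSO. Smad2 had a smaller residual standard deviation (SD) than nearly all genes, 0.0906, with 2.43% of tested genes below it, and limma's SE is moderated toward the spread of the other genes.

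For Smad3 the brighter probe gave -0.85, -0.32 and -0.55 on DMSO arrays 1 to 3, and -0.997, -0.30 and -0.78 on TSA arrays 1 to 3. Slide 2 was highest in both treatments and the treatments overlapped. The difference was -0.12 ± 0.27 (SE, n = 3; limma, adjusted p = 0.873), and the dimmer probe gave -0.07 ± 0.34 (adjusted p = 0.943). For the brighter probe the mean turned positive without TSA array 1 (0.036) or DMSO array 2 (0.012).

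Foxh1, the forkhead factor that brings the Smads to target genes, had levels of 2.28, 2.80 and 2.13 on DMSO arrays 1 to 3, and 1.94, 3.32 and 2.06 on TSA arrays 1 to 3. TSA array 2 was the highest of the 6, and the other TSA arrays lay below all DMSO arrays. The difference was 0.036 ± 0.42 (SE, n = 3; limma, adjusted p = 0.977), and its sign turned with median centring (-0.045), with quantile normalization (-0.0053), in the authors' table (-0.0055), and without DMSO array 1 (-0.024), TSA array 2 (-0.40) or DMSO array 3 (-0.10). It was also negative without both arrays of slide 2 (-0.21), with array weights (-0.33) and when scaled to the added control RNAs (-0.50).

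Smad7, which blocks the receptors from inside the cell and is induced by the pathway, had levels of -0.06, -0.14 and -0.08 on DMSO arrays 1 to 3, and -0.13, -0.27 and 0.01 on TSA arrays 1 to 3. The treatments overlapped and all 6 values lay within a narrow band. The difference was -0.037 ± 0.19 (SE, n = 3; limma, adjusted p = 0.946), with a 95% interval of 0.71-fold to 1.33-fold, and it was positive without TSA array 2 (0.034), without both arrays of slide 2 (0.0099) and with array weights (0.036). Among the 10 genes Smad7 had the narrowest range in DMSO, 0.08, and only 3.36% of tested genes had a smaller one.

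For Cer1, Lefty1, Lefty2, Foxh1, Smad3 and Smad7 the arrays of both treatments lay farther apart than the treatment means. On the 75th percentile scale, slide 2 had the highest array in both treatments for 7 of the 10, against 34.6% of all tested genes. These were Nodal, Lefty1, Cer1, Foxh1, Acvr2b, Smad2 and Smad3, although for Nodal DMSO arrays 2 and 1 were nearly tied (3.331 and 3.327). On that scale the added control RNAs stood at 3.33 on TSA array 2, 1.76 on TSA array 1 and 1.40 on TSA array 3. Relative to the controls, only Cer1 of these 7 still had its highest TSA level on array 2. Scaling to the controls lowers every gene on TSA array 2 relative to the other TSA arrays, and the share of all tested genes that kept this place was not counted. The excesses that follow are on the 75th percentile scale. The arrays of slide 2 exceeded the others by 3.96 for Cer1, 1.24 for Lefty1, 0.95 for Foxh1, 0.49 for Smad3, 0.46 for Nodal, 0.38 for Lefty2, 0.28 for Acvr2b and 0.13 for Smad2, against a median of 0.21 over all tested genes, while Tdgf1 and Smad7 were lower there by 0.29 and 0.14. Over the 6 arrays Lefty1 and Cer1 correlated at r = 0.948, whereas Nodal and Lefty1 correlated at 0.155 and Nodal and Cer1 at -0.03. High values were not particular to the inhibitors, since Smad3 correlated with Cer1 at 0.970 and with Lefty1 at 0.9645, and Acvr2b with Smad2 at 0.940. How many other genes reach such values with Lefty1 or Cer1 was not counted. These 6 arrays are 3 slides in 2 treatments, so the values describe few independent points. With the slide in the fit, the median residual SD of the 10 genes went from 0.437 to 0.238, and that of all tested genes from 0.355 to 0.242.

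**Figure D3:**
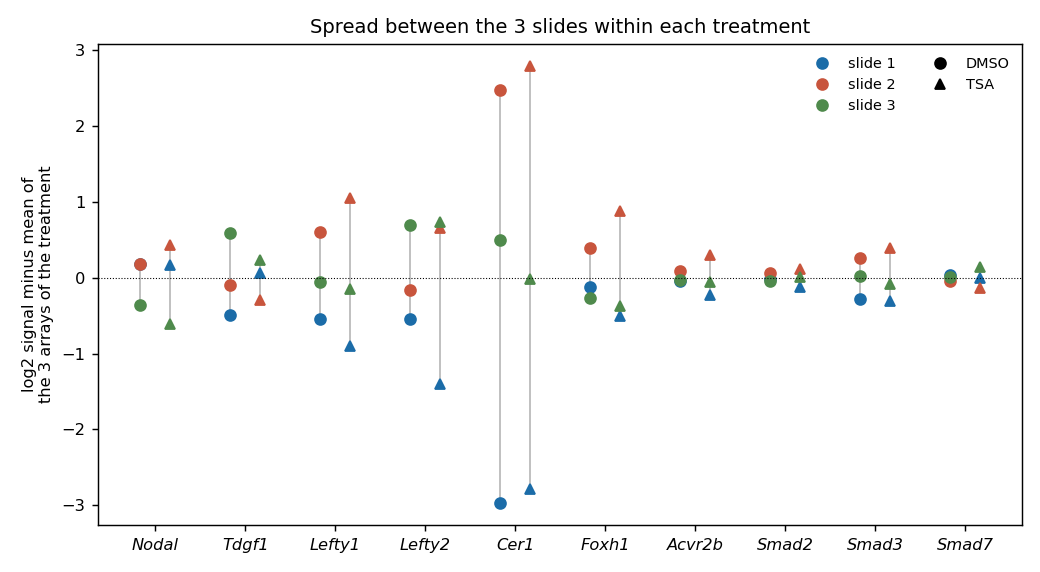
Level of each of the 10 genes (x axis) on each array minus the mean of the 3 arrays of its treatment (y axis, log2), with circles for DMSO, triangles for TSA and a colour for each slide. Cer1 spans over 5 log2 units in both treatments with slide 2 at the top and slide 1 at the bottom, while Smad2 and Smad7 span less than 0.3.

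On the 75th percentile scale, markers of several cell types also stood higher on slide 2. Relative to the added control RNAs, none of the marker sums below was highest on TSA array 2 among the TSA arrays. That scaling lowers every gene on TSA array 2 relative to the other TSA arrays. Among the DMSO arrays, the streak and extraembryonic endoderm sums were still highest on array 2 relative to the controls. Slide 2 had the highest array in both treatments for 5 of 6 primitive streak markers (all but Eomes), 9 of 9 tested extraembryonic endoderm markers, 3 of 5 tested neural progenitor markers, 2 of 5 tested trophoblast markers (not Tfap2c, Krt7 and Hand1), 1 of 8 stem cell markers and 0 of 6 primed epiblast markers, against 34.6% of all tested genes. The summed level of the 6 primitive streak markers (signal over the array's 75th percentile) was 13.1 on DMSO array 2 and 25.5 on TSA array 2, against 4.52 to 4.76 on the other DMSO arrays and 9.23 to 11.3 on the other TSA arrays. The gene T alone made up 60.9% and 65.1% of the slide 2 sums. For 11 markers of extraembryonic endoderm, a tissue that also expresses Cer1 and Lefty1 in the embryo, the sums were 4.86 and 7.38 on slide 2, against 1.73 to 2.06 on the other DMSO arrays and 2.62 to 3.23 on the other TSA arrays. Of these 11, 7 were above background on all arrays, among them Sox17, Gata6 and Afp, Ttr was above background on 0 arrays and Apoa1 on 2. Sox17 gave the largest part of both slide 2 sums, with levels of 0.95 on DMSO array 2 and 1.27 on TSA array 2. Amn made up 11.8% and 31.4% of these sums. Whether the signal of these markers came from extraembryonic endoderm or from another tissue was not tested. By treatment, each streak marker had a higher mean in TSA (6 of 6, median 1.08, range 0.34 to 2.70), where 58.1% of all genes did. Of these 6 streak markers 0 passed the test, while 2, Mixl1 and Evx1, passed with the slide as a block, where 3.34% of all genes did. Of the 9 tested extraembryonic endoderm markers 6 had a higher mean in TSA (median 0.22) and 0 passed, or 1, Amn, with the block. For 6 trophoblast markers, 5 of them tested, the sums were 8.64 and 16.7 on slide 2, against 2.12 to 6.06 on the other DMSO arrays and 3.76 to 8.78 on the other TSA arrays, and Cdx2 made up 44.2% and 59.4% of the slide 2 sums. All 5 tested had a higher mean in TSA and 0 passed, or 2, Cdx2 and Hand1, with the block. The sums of the stem cell markers (69.3 and 84.2) and of the neural progenitor markers (9.63 and 8.09) were highest on slide 2 in both treatments too, and those of the primed epiblast markers were not. By treatment, 5 of 8 stem cell markers had a higher mean in TSA (median 0.38), as had 2 of 6 primed epiblast markers (median -0.22) and 2 of 5 tested neural progenitor markers (median -0.38), of which 3 were lower in TSA on every slide. In these lists 0 passed, with or without the block. These marker genes past the blocked threshold were named after their values were seen. The part of these cell types in the levels of the 10 genes was not tested.

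The wider pathway was followed in lists by role, with 48 genes in all, 47 on the array and 46 tested. None of the 46 rose or fell (limma, adjusted p under 0.05), and 5 (Nodal, Tdgf1, Mixl1, Pmepa1 and Nedd4l) had an unadjusted p under 0.05, against 14.9% of all genes. The median difference of the 46 was -0.03, against 0.08 over all tested genes. With the slide as a block 1 of the 46 rose, the streak gene Mixl1, a target of the pathway (2.59 ± 0.94 without the block, adjusted p = 0.331, blocked 0.0311), while 3.34% of all genes passed in that fit. Dand5 had no named probe and the receptor gene Acvr1c, above background on 1 array, was not tested.

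Among 6 ligand genes, Nodal had the highest difference. Inhbb, a subunit of activin B, gave 0.57 ± 0.26 (adjusted p = 0.463) and Gdf3, a growth factor that can act through the same receptors, -0.29 ± 0.33 (adjusted p = 0.734). The other co-receptor gene, Cfc1, differed by -0.33 ± 0.66 (adjusted p = 0.849), opposite in sign to Tdgf1 and lower in TSA on every slide. Of the other receptors, the type II receptor gene Acvr2a gave -0.32 ± 0.18 (adjusted p = 0.576), like Acvr2b lower on every slide, and the type I receptor gene Acvr1b 0.20 ± 0.25 (adjusted p = 0.762). Smad4, the partner shared by Smad2 and Smad3, gave -0.15 ± 0.20 (adjusted p = 0.774).

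Of 7 tested extracellular inhibitors, 3 had a higher mean in TSA. Inha, the inhibin subunit that opposes activins, gave -0.62 ± 0.30 (adjusted p = 0.505) and Tmeff1, a membrane protein that binds Cripto, -0.58 ± 0.29 (adjusted p = 0.515), and both were lower on every slide. The 4 processing and secretory partners, which include the convertases Furin and Pcsk6, all had a higher mean in TSA and differences of 0.10 to 0.33, with 0.33 ± 0.32 for Nomo1 (adjusted p = 0.696) and 0.33 ± 0.50 for Ncln (adjusted p = 0.800), whose products form a complex that modulates Nodal signalling. Of 13 intracellular inhibitors 3 were higher in TSA by mean and the list's median was -0.24. Pmepa1, a feedback inhibitor that sequesters Smads, gave 0.59 ± 0.22 (adjusted p = 0.354), and Nedd4l, a ubiquitin ligase for phosphorylated Smad2 and Smad3, 0.74 ± 0.31 (adjusted p = 0.416). Both were higher on every slide. The 9 direct targets had a median of 0.34, with 6 higher and 3 lower by mean, and their arrays of slide 2 exceeded the others by a median of 1.74.

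**Figure D4:**
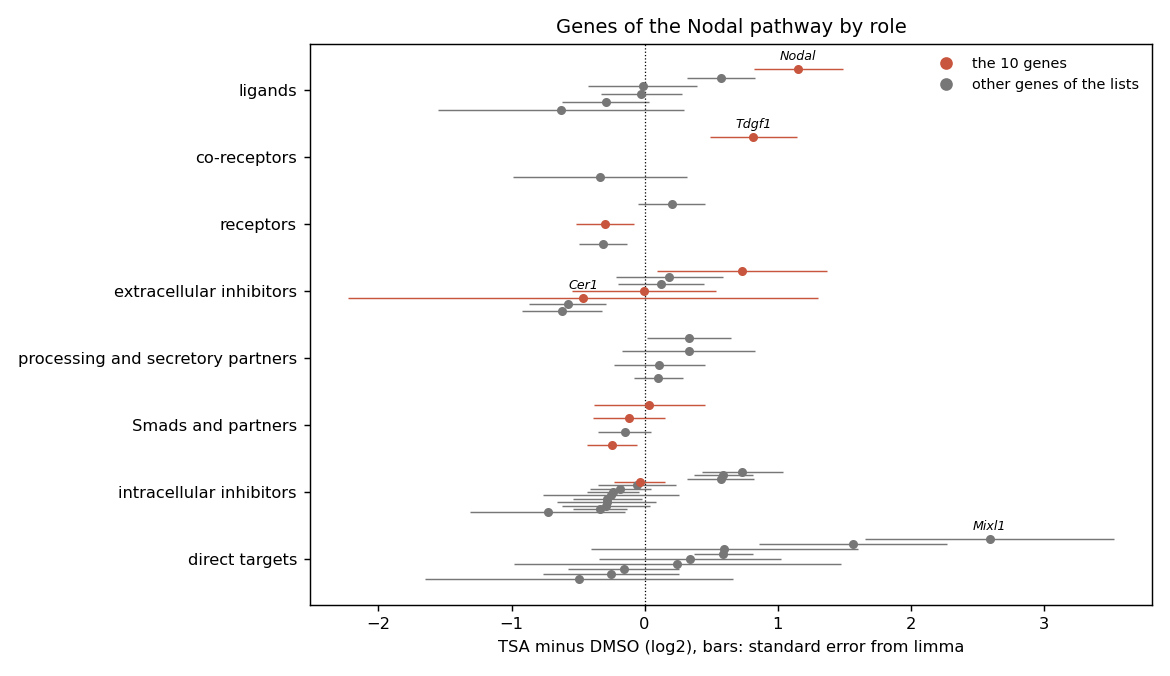
TSA minus DMSO (x axis, log2, with bars for the SE from limma, 3 arrays per treatment) for the tested genes of each role list (y axis), with the 10 genes in red and the others in grey. Most points lie within 1 of 0 and none passed the adjusted test, and the points farthest to the right are Nodal among ligands, Tdgf1 among co-receptors and Mixl1 among direct targets.

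The pattern of Nodal over the 6 arrays was compared with that of 12838 other named genes above background on all arrays. The closest by Pearson correlation were Gmfg and Kyat3 (both r = 0.997), Ly6h (0.996), Tdh (0.995) and Eef1a2 (0.994). They were picked as the highest of many values over few arrays and are given as a description. Their levels were higher in TSA on every slide, as for 32.6% of tested genes, which largely follows from picking them by correlation with Nodal. The differences were 0.53 for Gmfg, 1.05 for Kyat3, 1.40 for Ly6h, 0.83 for Tdh and 1.51 for Eef1a2. None passed the test (limma, adjusted p of 0.162 to 0.410). Tdh is also on the stem cell marker list. Among the 10 genes the one closest to Nodal was Tdgf1, at r = 0.384, which 51.2% of the compared genes fell below.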

How the data were processed

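Per the file headers, the authors' array files hold spot intensity, background-subtracted and detrended within the array by Agilent Feature Extraction (version 10.7, per the submitters' processing notes). The authors also deposited a table of log2 values whose normalization is not given in the sources used here. Its columns have medians of 6.31 to 6.34, and it correlates at 0.980 with log2 of the processed signal and served as an alternative. Control spots and outlier-flagged spots (57 to 84 per array) were left out, and spots of a probe were averaged as log2 signal relative to the array's 75th percentile. Probes were named through RefSeq identifiers or symbols (27484 of 41174). The 28166 probes well above background on at least 3 arrays were tested with limma 3.58.1 in R 4.3.3 (two-sided, treatment as the term), with Benjamini-Hochberg adjustment over all of them and a threshold of 0.05. A gene takes the values of its brightest tested probe, which gave 14533 genes. The code was tested on simulated data. The array annotation names another genome build than the RefSeq tables, so positions are given only for the promoter sequences.

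Deviations from the treatment means correlated at 0.484, 0.614 and 0.585 between arrays of the same slide and at -0.568 to 0.0916 between slides. Arrays of a slide, which carry the same replicate number, thus shared deviations. The labels do not say whether they also share an experiment. A probe's deviations within a treatment sum to 0, so these correlations are not independent of each other. Alternatives were other scalings (that to the added control RNAs was chosen after seeing the data), background correction, filters, moderation, array weights, the slide block and arrays left out. The normexp alternative used median spot signals. The genes and lists were chosen with earlier results of these data known. Besides the 10 genes, the text names pathway genes past the threshold with or without the block, otherwise up to 2 per list by adjusted p, and the 5 genes most like Nodal. Files were read and figures drawn in Python 3.11.15 (pandas 2.3.3, matplotlib 3.10.9).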

Additional observations from a re-analysis of the deposited data

How the results depend on the processing

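Under 19 alternatives, 0 of 190 values of the 10 genes passed the threshold (limma, lowest adjusted p 0.0600, Nodal with the replicate block) and 171 kept their sign. The replicate block, the filters and the moderation return the same difference as the main fit, so their signs could not turn. The same holds for averaging a gene's probes where the gene has 1 probe. The count of kept signs therefore includes values fixed in advance. Nodal ranged from 0.62 to 1.46, Tdgf1 from 0.28 to 1.11, Lefty2 from 0.19 to 1.43, Acvr2b from -0.84 to -0.18 and Smad2 from -0.78 to -0.18. For these 5 genes the value nearest the negative end came from scaling to the added control RNAs, which was chosen after seeing the data and moved the median of all probes by -0.54. Foxh1 turned to -0.045 with median centring, -0.0053 with quantile normalization, -0.0055 in the authors' table, -0.21 without both arrays of slide 2, -0.33 with array weights and -0.50 when scaled to the added control RNAs, and Smad7 turned to 0.0099 without slide 2 and 0.036 with array weights. With each array left out in turn, Lefty1 ranged from -0.53 to 0.44, Cer1 from -1.95 to 0.93, Foxh1 from -0.40 to 0.29, Smad3 from -0.31 to 0.036 and Smad7 from -0.11 to 0.034. Each of these fits leaves the slides unequally filled, so the values also carry differences between slides. The causes were not tested. Over all probes, 259 were higher and 10 lower. The replicate block gave 618 and 41 (and 1 pathway list gene, Mixl1), array weights 1352 and 298, and the number higher was 137 with median centring, 148 with quantile normalization, 62 with normexp and 142 in the authors' table. No filter gave 58 higher and 0 lower. Leaving out single arrays gave 0 to 576 higher and 0 to 54 lower: 5 of these 6 fits called 0 probes in either direction (2022 to 3330 at an unadjusted p under 0.05), and the exception was the fit without TSA replicate 2. Scaling to the added control RNAs gave 0 higher and 0 lower, with 496 at an unadjusted p under 0.05. Without both arrays of slide 2, limma called 0 higher and 0 lower, with 4997 at an unadjusted p under 0.05. Besides Mixl1 and the markers Evx1, Amn, Cdx2 and Hand1, the replicate block changed the call of no gene named here. No other scaling moved the median of all probes by over 0.1. The number of arrays limits the precision, and all 10 genes were detected on every array.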
